A study of Homo sapiens with 9 samples.

Results

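The 9 arrays of the study came from 3 HEK293 lines, a human line of embryonic kidney origin, that stably express HA-tagged MEK1 as the wild type (WT) or as the F53S or K57N mutant. MEK1, encoded by MAP2K1, is the kinase that activates ERK, and the methods tie F53S to RASopathies (developmental syndromes) and K57N to cancer. Each line had 3 replicates, described as independent experiments on cells at steady state with no agent added. The arrays of replicate 1 of all 3 lines lay on 1 slide and those of replicates 2 and 3 on another. The comparison here sets the 3 replicate 1 arrays (the first experiment) against the other 6 of the 9 (the later experiments), with the cell line as a block. Each line thus carries the same transgene in both experiments, and no array comes from cells without it. Nothing states that a line was derived more than once, and the labels of WT replicates 2 and 3 name, in a source field, other cell numbers than HEK293 while the cell line field says HEK293 for all.

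Slide and scan changed together between the experiments, and labelling, RNA preparation and culture may have changed with them. These cannot be told apart. Each value is the log2 of the array's processed Cy3 signal less the 75th percentile of that array, so 1 unit is a 2-fold difference. A difference is replicate 1 minus replicates 2 and 3. A gene is represented by its brightest tested probe, and levels are compared only between arrays for the same probe. A gene was called when its adjusted p was below 0.05 in limma and the difference was more than 2-fold. The p-values cover the spread over lines and between replicates 2 and 3, and no spread between slides, since there was 1 slide on each side.

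Several of the genes described below belong to known programmes of cell state. The integrated stress response slows protein synthesis when amino acids run short or unfolded protein builds up in the endoplasmic reticulum, and its factor ATF4 then raises genes of amino acid uptake and synthesis together with CHAC1, DDIT3 and TRIB3. YAP and TEAD drive CCN2 and ANKRD1 in spread, sparsely plated cells and are held back by crowding or loss of serum. Mitotic genes such as CENPE and ASPM follow the share of dividing cells. In bulk RNA a change in the share of cells in a state and a change of RNA per cell cannot be told apart.

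The 75th percentile of the signal was between 245 and 376 on the slide of the first experiment and between 695 and 821 on that of the later ones, and between 23714 and 26113 probes against between 27115 and 29324 probes were well above background. Of 10 RNA spike-ins, 7 were measured on all arrays. On the scaled values their mean difference was 0.02, with a range over spike-ins from −0.15 to 0.26, but by line it was 0.23 in WT, 0.38 in F53S and −0.54 in K57N. Scaling by spike-ins would therefore move the K57N differences up against those of the other lines. MAP2K1 itself did not pass the test, with a difference of 0.05 ± 0.07 (SE, 3 arrays against 6; limma adjusted p = 0.517). Of 9 tested genes that mark HEK293 cells, none was called (0.0%, beside 12.7% of all genes higher and 5.04% lower). In limma 6 were past an adjusted p of 0.05 at any fold and 7 at an unadjusted p below 0.05. Their summed signal was between 8.29 and 8.66 on the log2 scale in the first experiment and between 8.01 and 8.49 in the later ones. Of 7 tested markers of blood, liver, endothelium, muscle and melanocytes, PTPRC (1.68) and APOA1 (1.13) were higher in the first experiment. ACTA1 was called lower (14.3% beside 5.04% of all genes) but was above background on 1 of the 3 first arrays. The rest of the 7 were not called, and those of the 13 listed beyond these 7 were not tested. The summed signal of these 7 lay between 0.64 and 1.44 on the log2 scale in the first experiment and between 0.36 and 0.62 in the later ones, and their part in the other results was not tested.

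Of 19176 genes tested, 2433 were higher in the first experiment, which is 12.7% of all tested, and 967 were lower, or 5.04%. A probe could enter through the later arrays alone: 438 tested genes were well above background on no first array, and 595 of the 967 lower and 2135 of the 2433 higher genes were so on all 9. In 2385 (12.4%) of the higher and 930 (4.85%) of the lower genes the replicate 1 array lay outside both later arrays in each of the 3 lines, 3315 genes (17.3%) in all. Whatever the size of the difference, replicate 1 lay above both later arrays in every line for 8366 genes (43.6%) and below both for 4880 (25.4%). The balance depended on the normalization and background correction: quantile normalization gave 1492 higher and 1482 lower with a median of all genes of 0.05, and normexp background correction 2132 and 359 with a median of 0.35. Between replicates 2 and 3, which shared a slide, limma called 0 genes (0.0%), with 547 at an unadjusted p below 0.05, of which 32 were also over 2-fold apart. The error term of that test also holds how far the replicate 1 arrays differed between lines, which can hide differences. The 0 calls therefore do not measure how alike replicates 2 and 3 were. The SD of the difference over genes was 0.73 between the experiments on different slides and 0.19 between the later ones. By line it was 0.81 in WT, 0.91 in F53S and 0.63 in K57N. A difference of more than 2-fold in the same direction in each line was found for 996 genes upward (5.19%) and 227 downward (1.18%).

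The difference varied with the base composition of the probes. The array carries probes of 60 bases, and GC-rich probes bind their labelled target more tightly. Genes whose probe had between 35 and 40% GC had a median difference of −0.17, those between 50 and 55% one of 0.66, and the 572 genes at 60% or more one of 1.02. Of those 572, 51.6% were called higher and none lower. Below 30% GC the median was 0.31 (188 genes) and from 30 to 35% it was 0.16 (125 genes), so the 2 sparse bins at the low end lay above the next. Across all tested genes the correlation with probe GC was 0.43 and that with the mean signal 0.01, as descriptions over genes, which share the 9 arrays. The course over signal was not straight: by mean signal on the log2 scale the median was 0.48 between −4 and −3 and 0.06 between 0 and 2, where 23.1% and 7.16% were called higher, and 0.33 above 2. The trend with GC was present in each line, with a correlation of 0.40 in WT, 0.44 in F53S and 0.34 in K57N. Between replicates 2 and 3 the same bins differed by −0.10 at most.

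A trend with the position of the probe in its transcript ran across genes as well. The files' start column was read as the position of a probe in its transcript. Of 858 probe pairs of 1 accession less than 200 bases apart by it, 79.4% were as far apart on the genome within 2 bases and 20.5% farther. Genes whose probe starts within 500 bases of the transcript's first base had a median of 0.48, and those whose probe starts at 8000 bases or more had one of −0.48, where 17.8% were called lower and 1.57% higher. Both trends were present with the other held: below 40% GC the median went from −0.00 for probes within 1000 bases to −0.38 at 4000 or more, at 50% GC or more it went from 0.75 to 0.41, and within probes that start between 1000 and 2000 bases it went from −0.04 below 40% GC to 0.70 at 50% or more. In 1158 transcripts with 2 tested probes at least 1500 bases apart, the probe nearer the 3′ end differed from the other by a median of −0.14, and by 0.00 after the trends with GC and signal were taken out. Over genes that correction left medians of 0.21 within 500 bases and −0.23 at 8000 or more. Within these transcripts no such trend was seen in the median. The median difference of all genes was 0.23.

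To separate genes from these trends, each array's smooth dependence on probe GC and on mean signal was subtracted before the same fit. This left 1871 genes higher (9.76%) and 561 lower (2.93%). Of the genes called first, 1311 higher (6.84%) and 480 lower (2.5%) were called again in the same direction. Taking out position as well left 1722 (8.98%) and 515 (2.69%), of which 1226 and 421 had been called on the values as measured. There were 1069 higher and 271 lower genes that were well above background on all 9 arrays, called before and after the GC and signal correction, and outside the later arrays in all 3 lines. The genes called higher on the values as measured had a median probe GC of 50%, against 38.3% for those called lower and 43.3% for all tested. Fewer of them were protein-coding, 44.8% against 74.3% of the lower and 71.1% of all, but 57.6%, 82.4% and 79.0% of them had a RefSeq name from which the type is known.

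The 12 largest rises among these genes ranged from 2.45 to 3.17 on the log2 scale. C1QTNF5, a secreted protein of the eye, stood at −0.57, −0.56 and −1.23 on the first arrays of WT, F53S and K57N and between −4.64 and −3.28 on the later ones. That is a 9.02-fold difference (3.17 ± 0.30, limma adjusted p = 0.000148), with no overlap. SCN3A, a sodium channel of neurons, rose by 2.70 ± 0.21 and CHAT, which makes acetylcholine, by 2.61 ± 0.23, both with probes of low GC (40 and 38.3%) and dim signals in the later experiments. NEURL1, a ubiquitin ligase, was at 4.32, 4.77 and 3.76 on the first arrays against −0.15 to 2.32 on the later ones, with a difference of 2.76 ± 0.26. HIF3A, a hypoxia factor that opposes its relatives, rose by 2.59 ± 0.37 from later values between 0.04 and 2.5. The other rises were in CFAP92, MAB21L2, FAM177B, LRRD1, ACBD4, EVPLL and LINC00112. A further tested probe of CFAP92 differed by −0.27, so its 2.96 held for 1 probe of 2.

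The 12 largest falls ranged from −2.16 to −1.86. COL12A1, a fibril-associated collagen, was at −0.91, −1.38 and −1.71 on the first arrays of WT, F53S and K57N and between −0.04 and 1.46 later, a 4.48-fold fall (−2.16 ± 0.16, limma adjusted p = 0.00012) that its other tested probe shared (−2.37). CENPE, the kinesin that carries chromosomes to the spindle's middle, fell by 2.08 ± 0.26 from later values between 1.15 and 2.17. ASPM, which focuses spindle poles, was at 1.07, 0.88 and 1.56 on the first arrays and between 2.84 and 3.28 later, a difference of −1.99 ± 0.17. SGO2, a protector of centromere cohesion, fell by 1.99 ± 0.22 and NOP58, a core protein of box C/D nucleolar particles, by 1.88 ± 0.14. CEP290, a protein of the centrosome and cilium, fell by 1.86 ± 0.31. The probes of CEP290, CENPE, ASPM and COL12A1 lie far along their transcripts, at 7850, 8176, 10631 and 11272 bases. The others were CCN2, LINC00342, ANKRD19P, ANKRD36B, TTN-AS1 and RBM41, and the other tested probe of TTN-AS1 was at −0.18. With the trend in position removed too, CENPE stood at −1.70, ASPM at −1.38, COL12A1 at −1.40 and CEP290 at −1.19.

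**Figure D1:**
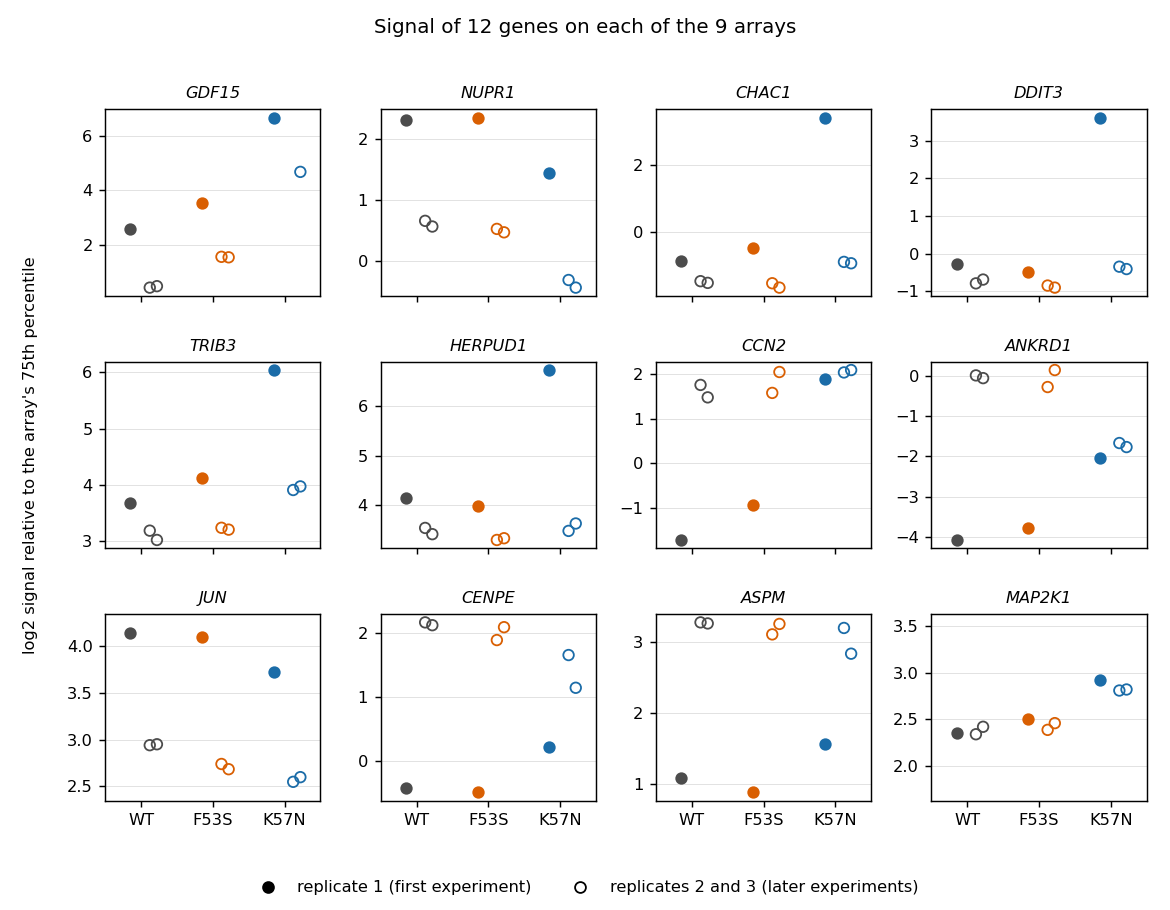
Log2 signal relative to the array's 75th percentile (y axis, own range in each panel) of 12 genes on the 9 arrays, by cell line; filled points are replicate 1 and open points replicates 2 and 3. GDF15 and NUPR1 are higher on the first array of every line, CHAC1, DDIT3, TRIB3 and HERPUD1 mostly on that of K57N, CCN2 and ANKRD1 are low on those of WT and F53S, and MAP2K1 moves little. GDF15 has 1 open point for K57N because its other spot was marked an outlier by the scanner software.

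Genes of the stress response were read from a list of 29 tested targets of ATF4. In the first experiment 10 of them were higher, or 34.5% beside the 12.7% of all genes, and limma called none lower, although 2 of the 29 were lower at an adjusted p below 0.05 at any fold. The list's median was 0.67 beside 0.23 for all genes tested. That is 0.44 above all genes, which became 0.16 without K57N replicate 1. It was 0.67 beside 0.19 with the trends in GC, signal and position removed, when 5 of the 10 were still called. The 10 were GDF15, CHAC1, NUPR1, DDIT3, DDIT4, CEBPB, SLC6A9, PCK2, TRIB3 and SESN2. By line the median was 0.55 in WT, 0.47 in F53S and 1.22 in K57N.

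GDF15, a stress hormone that curbs appetite, was at 2.61 in WT, 3.55 in F53S and 6.65 in K57N on the first arrays. The later arrays were at 0.46 and 0.51 in WT, 1.58 and 1.56 in F53S and 4.68 in K57N, where 1 spot was left out. The lines differ widely in level, yet the difference was 2.13, 1.98 and 1.98, or 4.09-fold over all (2.03 ± 0.08, limma adjusted p = 0.00011). NUPR1, a small stress-induced chromatin protein, behaved alike: 2.31, 2.35 and 1.45 on the first arrays against values between −0.43 and 0.66 later, with differences of 1.69, 1.85 and 1.82. For both genes the first arrays lay above the later ones in each line. The test of a difference between lines gave an adjusted p of 0.529 for GDF15 and 0.596 for NUPR1.

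CHAC1, which breaks down glutathione, showed another pattern. Its first arrays stood at −0.89 in WT and −0.50 in F53S but at 3.41 in K57N, and the later 6 were between −1.68 and −0.91. The differences were 0.62 in WT, 1.11 in F53S and 4.34 in K57N (SE 0.09 for each, from the spread between replicates 2 and 3 with 3 residual degrees of freedom), so the K57N array was 20.2-fold above its later pair. DDIT3, the CHOP factor of prolonged stress, was at −0.26, −0.48 and 3.61 on the first arrays and between −0.90 and −0.34 later, with differences of 0.48, 0.40 and 3.99. Without K57N replicate 1, CHAC1 was at 0.86 and DDIT3 at 0.44 and neither was called, and the call of DDIT3 was also lost without any one later array. TRIB3, a pseudokinase that restrains AKT, differed by 0.58, 0.90 and 2.10, DDIT4, an inhibitor of mTORC1, by 1.11, 1.01 and 2.30, and CEBPB, a bZIP partner of ATF4, by 0.90, 1.07 and 2.08. The limma test of the interaction between line and experiment gave adjusted p-values of 0.00863 for CHAC1, 0.00769 for DDIT3, 0.0294 for TRIB3 and DDIT4, and 0.0305 for CEBPB. ATF4 itself, which is controlled mainly through translation, differed by 0.16, 0.27 and 1.15.

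The promoter of CHAC1 is shown because this gene had the largest K57N difference of the list and holds the letters of the composite site that ATF4 shares with C/EBP proteins. The sequence is the 250 bases before the start in RefSeq (GRCh38.p14, plus strand, chr15:40953221-40953470), with the match to TGATGNAA, here on the reverse strand and beginning 209 bases before the start, in capitals.
CHAC1: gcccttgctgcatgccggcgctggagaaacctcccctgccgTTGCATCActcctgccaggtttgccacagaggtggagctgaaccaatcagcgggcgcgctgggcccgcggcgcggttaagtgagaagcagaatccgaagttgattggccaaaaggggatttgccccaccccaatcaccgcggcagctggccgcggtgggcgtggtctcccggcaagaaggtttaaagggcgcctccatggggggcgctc
TGATGNAA was searched on both strands from 250 bases before to 50 after the start, and it lies in 4.46% of 27305 genes with a promoter in the RefSeq table. On the list 5 of 24 matched genes hold it, namely ASNS, ATF3, CEBPG, CHAC1 and SLC3A2, of which CHAC1 was called.

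Of the 29 targets, 18 had an interaction of line and experiment, and in 17 of these the K57N difference was the highest of the 3 lines. In 21 members, or 72.4%, K57N was above both other lines, beside 30.4% of all genes. Over all genes limma gave 3189 with an interaction, 16.6% of those tested. With the 3 trends removed there were 1441 (7.51%), of which 15 were on this list, and with normexp background correction 34 (0.177%), of which 4 were, so the number depends on the background correction with its offset of 50. Without the filter on dim probes it was 2. Each line has 1 first array, so an interaction rests on single arrays and its p-value on the spread between replicates 2 and 3, which share a slide.
Among the members that passed the interaction test without being called were several of amino acid transport and synthesis. SLC7A11, which imports cystine, was at −1.50 in WT, −1.90 in F53S and 1.20 in K57N on the first arrays and between −0.62 and 0.04 later, so its differences of −1.10, −1.31 and 1.29 had opposite signs (adjusted p of the interaction = 0.0219). SLC3A2, its heavy chain, differed by 0.21, 0.32 and 1.22 and CTH, which makes cysteine, by −0.02, 0.16 and 1.33. XPOT, a tRNA exporter, stood apart at −1.27, −1.53 and −0.06. PHGDH, the entry enzyme of serine synthesis, did not pass it (0.85, 0.95 and 0.48 by line; adjusted p = 0.0593). ATF5 was the member with an interaction in which K57N was lowest, at 0.39, 0.52 and −0.19.

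**Figure D2:**
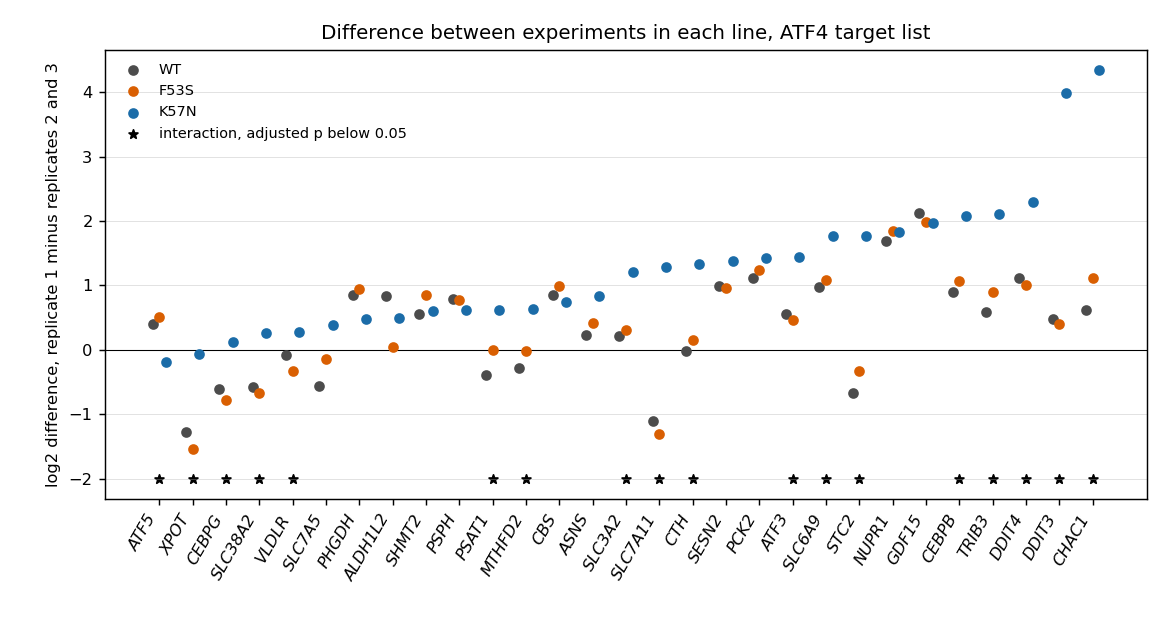
Log2 difference between replicate 1 and replicates 2 and 3 (y axis) for the 29 tested ATF4 targets (x axis, ordered by the K57N value); each point is 1 line and a star marks an interaction of line and experiment with an adjusted p below 0.05. The K57N points of CHAC1 and DDIT3 reach 4.34 and 3.99 with WT and F53S at or below 1.11, while the 3 points of GDF15 and NUPR1 lie together.

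Genes of the endoplasmic reticulum and its unfolded protein response were called in 2 of 20 cases, both upward, 10% beside 12.7% of all genes. HERPUD1, part of the machinery that removes misfolded protein, was at 4.14, 3.99 and 6.74 on the first arrays and between 3.30 and 3.64 later (differences 0.66, 0.67 and 3.17; interaction adjusted p = 0.0218). Its call was lost without K57N replicate 1, when it was at 0.67. XBP1, a factor of the same response, rose by 1.06 ± 0.11 with 0.82, 0.96 and 1.39 by line, and was not called with the 3 trends removed (0.91). HSPA5, the chief chaperone of the compartment, differed by −0.22, −0.51 and 0.84 and was not called. In 15 of the 20 the K57N difference was above both others.
Of 21 aminoacyl-tRNA synthetases, which ATF4 also regulates, limma called none in either direction (0.0%, beside 12.7% of all genes higher and 5.04% lower). Of them 14 were at an unadjusted p below 0.05, and 8 were higher and 6 lower at an adjusted p below 0.05 at any fold. SARS1 differed by 0.65 ± 0.08 and QARS1 by 0.71 ± 0.12, though the other tested probe of SARS1 was at −0.03, and the median of 0.02 was below that of all genes.

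Targets of YAP and TEAD were lower in 2 of 14 cases (14.3% beside 5.04% of all genes), CCN2 and ANKRD1, the latter tested through the later arrays alone. CCN2, a matricellular protein, was at −1.72 in WT, −0.95 in F53S and 1.88 in K57N on the first arrays, and the later ones were between 1.47 and 2.09. The fall was 3.34 in WT and 2.76 in F53S on the log2 scale, and the K57N difference was −0.18 (SE 0.23 for each line; interaction adjusted p = 0.0294). ANKRD1, a muscle ankyrin that is a sensitive readout of the same factors, was well above background on the first K57N array (−2.05, with −1.67 and −1.77 later) and not on those of WT (−4.08) and F53S (−3.79). The later arrays of WT and F53S were between −0.28 and 0.14, so there the size of its fall is bounded only by the background. CCN1, related to CCN2, stood at −1.42, −1.30 and 0.15 without being called. AMOTL2, a brake on YAP, differed by −0.91 ± 0.13 and was not called. The median of the list was −0.43, and −0.08 with the 3 trends removed, while CCN2 (−1.92) and ANKRD1 kept their calls. Without F53S replicate 1, CCN2 was at −1.76 and not called.

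Among 23 immediate early and serum response genes 2 were higher (8.7% beside 12.7% of all genes) and CCN2 lower (4.35% beside 5.04%). JUN, a subunit of AP-1, was at 4.14, 4.09 and 3.73 on the first arrays and between 2.55 and 2.95 later, with a similar rise in each line (1.20, 1.38 and 1.15; 1.24 ± 0.08, limma adjusted p = 0.00011). Its probe has 35% GC, and with the 3 trends removed the difference was 1.53. DUSP1, a phosphatase of MAP kinases, rose by 1.03 ± 0.20, and by line it differed by 0.49, 0.90 and 1.69. FOS (−0.78, −0.05 and 1.11), EGR1 (−0.20, 0.25 and 1.34) and MYC (−0.12, 0.15 and 0.85) were not called.

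Mitotic genes were lower in 6 of 26 cases, or 23.1% beside 5.04%, and limma called none higher, though 3 were higher at an adjusted p below 0.05 at any fold. Besides CENPE and ASPM they were MKI67, the proliferation marker (−1.31 ± 0.10), CENPF of the kinetochore (−1.29 ± 0.19), DLGAP5 (−1.15 ± 0.08) and HMMR (−1.15 ± 0.11), both spindle proteins. MKI67 was at 0.97, 0.68 and 0.87 on the first arrays against 1.99 to 2.28 later, and all 3 of its probes were called. The list's median was −0.48, and 4 of the 6 kept their call with the 3 trends removed. CCNB1, the cyclin of mitotic entry, differed by 0.25 ± 0.13 and TOP2A by −0.97 ± 0.13 without a call. Of 28 genes of DNA replication CDT1, which licenses origins, rose by 1.1 ± 0.16 and CLSPN, a checkpoint adaptor, fell by 1.49 ± 0.13 (3.57% each, beside 12.7% and 5.04% of all genes), and both were called with the trends removed.

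The 61 tested histone genes that are expressed with replication had 29 calls upward and none downward in limma, 47.5% beside 12.7%, and 58 were higher at an adjusted p below 0.05 at any fold. Their probes had a median GC of 53.3%, and after removal of the GC and signal trends 4 calls stayed, with position 2. H2BC7, whose probe has 41.7% GC, was among these: 0.99, 1.33 and −0.25 on the first arrays, between −1.32 and −0.64 later, with a difference of 1.58 ± 0.18 and of 1.69 without the trends. H4C8 (1.37), H2AC19 (1.32) and H3C15 (1.31) had probes of 53.3 to 55% GC and did not keep their calls.
In the same way 7 of 8 metallothioneins, which bind zinc and copper, were higher (87.5% beside 12.7%), and 1 was called without the trends. That gene was MT2A, with a probe of 35% GC: it was at 7.69, 7.92 and 8.55 on the first arrays of WT, F53S and K57N and between 6.18 and 7.86 later. The first array lay above the later 2 in each line, but the first WT array lay below the later K57N arrays. Its difference was 1.20 ± 0.14, and MT1E (1.22), MT1L (1.21) and MT1B (1.18) were close to it. Metallothionein transcripts are much alike in sequence and their probes may share target.
Of 83 genes of cytoplasmic ribosomal proteins 8 were higher (9.64% beside 12.7% of all genes), among them RPL28 (1.20 ± 0.13), RPLP2 (1.14 ± 0.12), RPS9 (1.13 ± 0.15) and RPS2 (1.1 ± 0.10), and 0 kept the call in limma with the trends removed. Their median of 0.63 was then 0.05, beside 0.18 for all genes, so against all genes it turned from above to below, as it did with quantile normalization.

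The heat shock proteins had calls in both directions, 2 of 19 higher (10.5% beside 12.7% of all genes) and 5 lower (26.3% beside 5.04%). With the GC and signal trends removed HSPB1, DNAJB4, DNAJA1 and HSP90AA1 kept their calls, and with position HSP90AA1 lost it (−0.98). HSPB1, a small chaperone, rose from later values between 5.65 and 5.81 to 6.98, 7.14 and 6.20 (1.06 ± 0.15) and CRYAB, of the same family, by 1.29 ± 0.18. The falls were DNAJB4 (−1.55 ± 0.15), DNAJA1 (−1.31 ± 0.15), CHORDC1 (−1.23 ± 0.12), HSPH1 (−1.20 ± 0.13) and HSP90AA1 (−1.08 ± 0.12), all cofactors or members of the HSP70 and HSP90 systems. DNAJA1 was at 2.41, 2.45 and 2.40 on the first arrays and between 3.44 and 4.15 later, and the falls in the lines were alike (−1.28, −1.26 and −1.40). HSP90AA1, the inducible cytosolic HSP90, was at 6.16, 6.44 and 6.98 against 7.51 to 7.74. HSPA8, the constitutive HSP70, differed by −0.53, −0.58 and −1.66 and HSPA1A, the inducible one, by 1.01, 0.44 and −1.48, neither of them called as measured. HSPA8 was called lower with the GC and signal trends removed (−1.07) and with position too (−1.06). DNAJB4 was well above background on 2 of 3 first arrays and so was tested through the later arrays alone, and the other 4 falls were measured on all arrays.

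The promoters of HSP90AA1 and DNAJA1, the fallen genes with a call before and after the GC and signal correction among those that hold the core of a heat shock element, are printed as the 250 bases before the start (RefSeq, GRCh38.p14). HSP90AA1 lies on the minus strand, chr14:102087045-102087294, and DNAJA1 on the plus strand, chr9:33025023-33025272, and capitals mark the match to GAANNTTC.
HSP90AA1: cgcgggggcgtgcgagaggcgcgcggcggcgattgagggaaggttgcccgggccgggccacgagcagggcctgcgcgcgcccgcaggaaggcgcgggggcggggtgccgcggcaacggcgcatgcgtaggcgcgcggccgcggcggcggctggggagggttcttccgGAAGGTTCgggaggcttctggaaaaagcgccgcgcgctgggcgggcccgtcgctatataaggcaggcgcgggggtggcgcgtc
DNAJA1: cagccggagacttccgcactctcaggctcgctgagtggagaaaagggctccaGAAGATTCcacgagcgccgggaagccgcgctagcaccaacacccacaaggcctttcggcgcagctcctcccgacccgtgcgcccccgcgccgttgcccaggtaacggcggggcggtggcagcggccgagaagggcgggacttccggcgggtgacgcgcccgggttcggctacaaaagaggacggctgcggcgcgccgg
The match begins 83 bases before the start in HSP90AA1 and 198 in DNAJA1. GAANNTTC reads the same on both strands and lies in 8.21% of genes with a promoter. Of 18 heat shock genes matched, 11 hold it, and of the 6 called among them 4 do, namely CHORDC1, DNAJA1 and HSP90AA1, which fell, and HSPB1, which rose.

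Among 20 targets of p53, 5 were higher (25.0% beside 12.7% of all genes) and limma called none lower, with 2 lower at an adjusted p below 0.05 at any fold. CDKN1A, the inhibitor of cyclin-dependent kinases, was at 0.32, 0.29 and −0.03 on the first arrays and between −1.59 and −0.51 later, with differences of 1.81, 1.48 and 0.49 by line (interaction adjusted p = 0.0294). TP53I3 (1.68, 1.82 and 0.22) and FDXR (1.59, 1.77 and 0.22), both of redox metabolism, rose likewise with a smaller K57N value, and BBC3, the death protein PUMA, by 1.19 ± 0.09. The probes of these 4 have 55% GC, and with the trends removed they were at 0.72, 0.77, 0.56 and 0.63 and not called, while 1 of the 5 kept its call and the list's median went from 0.34 to 0.52. Less the median of all genes the list's median was 0.11, and it was 0.03 without WT replicate 1 and 0.23 without K57N replicate 1. With normexp background correction it was −0.15. MDM2 differed by −0.33 ± 0.15 and BAX by 0.27 ± 0.21, neither called.

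Of 23 targets of HIF, which answers low oxygen, limma called none higher (0.0% beside 12.7% of all genes), with 9 higher at an adjusted p below 0.05 at any fold. BNIP3L, a receptor for removal of mitochondria, fell by 1.20 ± 0.13 (4.35% beside 5.04% of all genes). Of its 3 tested probes 1 was called, with differences from −1.20 to −0.34. VEGFA (0.53 ± 0.17) and SLC2A1 (0.55 ± 0.08) were not called. The letters ACGTG, on both strands, were in 11 of 18 matched promoters of the list and in 24.9% of genes.
In glycolysis 4 of 17 genes were higher, 23.5% beside 12.7% of all genes: PFKL, the liver phosphofructokinase, at 4.60, 4.95 and 4.29 against 2.47 to 3.21 (1.83 ± 0.17), ALDOA (1.07 ± 0.18), TPI1 (1.05 ± 0.13) and ALDOC (1.03 ± 0.10). PFKL kept its call with the trends removed, and ALDOA, TPI1 and ALDOC did not.
Of 24 genes of cholesterol synthesis MVD rose by 1.04 ± 0.13 and HMGCS1 fell by 1.12 ± 0.17 (4.17% each, beside 12.7% and 5.04% of all genes), and neither was called with the trends removed. SQLE, an oxidase of the pathway (−0.19 ± 0.10), was not called. The sterol element letters TCACNCCAC were in the promoter of SREBF2 among 18 matched, beside 1.39% of genes.
In fatty acid synthesis 2 of 13 genes were higher (15.4% beside 12.7% of all genes) and 1 lower (7.69% beside 5.04%). SREBF1, its master factor, rose by 1.46 ± 0.14 and FADS2, a desaturase, by 1.12 ± 0.16, with probes of 36.7 and 33.3% GC, and both calls stayed with the trends removed. ELOVL6, an elongase, fell by 1.0 ± 0.09, close to the limit of 2-fold, and with the 3 trends removed it was at −0.66 and not called.

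Of 20 genes of FOXO, glucose and starvation response 2 were higher (10% beside 12.7% of all genes) and 1 lower (5.0% beside 5.04%). DEPP1, which FOXO factors induce, was at 5.30, 5.26 and 2.87 on the first arrays. Later it was at 4.03 and 4.06 in WT, 3.83 and 3.75 in F53S and 1.77 and 1.86 in K57N, so it rose alike in lines of very different level (1.26 ± 0.09). YPEL3 rose by 1.15 ± 0.19, and PDK4, which spares glucose, fell by 1.23 ± 0.10, but with the 3 trends removed it stood at −0.88 and was not called. TXNIP, a glucose-responsive arrestin, differed by 0.38, −0.75 and −1.70 and was not called.
Among 22 genes of lysosome and autophagy FLCN, a brake on TFE3 at the lysosome (1.21 ± 0.07), CTSD (1.12 ± 0.14) and NEU1 (1.01 ± 0.11) were higher, 13.6% beside 12.7% of all genes, and with the 3 trends removed they stood at 0.87, 0.60 and 0.75 and were not called. Of 16 targets of NRF2, the oxidant sensor, 2 were higher, 12.5% beside 12.7% of all genes. FTH1, the ferritin heavy chain, rose by 1.1 ± 0.09 with a probe of 36.7% GC and kept its call, while TKT (1.05 ± 0.13) did not.
In ribosome biogenesis 3 of 24 fell (12.5% beside 5.04% of all genes), NOP58, UTP20 (−1.28 ± 0.14) and DDX21 (−1.06 ± 0.20), and NIP7 rose by 1.0 ± 0.12 (4.17% beside 12.7%). With the 3 trends removed NOP58 and NIP7 kept their calls, and UTP20 (−0.88) and DDX21 (−0.76) did not. Of 78 nuclear genes of the respiratory chain NDUFS7 (1.05 ± 0.15) and NDUFS8 (1.02 ± 0.16) were called, 2.56% beside 12.7% of all genes, and neither with the trends removed. Of 13 mitochondrially encoded genes limma called none (0.0%, beside 12.7% of all genes higher and 5.04% lower), with 10 at an unadjusted p below 0.05. At an adjusted p below 0.05 at any fold 9 were higher, such as CYTB (0.33 ± 0.10) and ATP6 (0.44 ± 0.11). Of 13 interferon-stimulated genes MX1 (1.06 ± 0.13) and IRF7 (1.04 ± 0.12) were higher (15.4% beside 12.7% of all genes), and with the 3 trends removed MX1 (1.40) kept its call and IRF7 (0.54) did not. IFI44L was lower in the fit and not well above background on any first array, so no fold is given.

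Small nuclear and nucleolar RNAs guide the processing and modification of other RNAs and carry no long poly(A) tail, whereas labelling kits of this kind prime on poly(A). Of 236 tested, 41 were higher (17.4% beside 12.7% of all genes) and 8 lower (3.39% beside 5.04%), of which 24 and 5 were called again without the GC and signal trends, and 18 and 8 with position removed too. Probes of a few are shown since they share length and labelling and differ in base composition and direction. Each runs 5′ to 3′ as deposited, with G and C in capitals.
SNORA60: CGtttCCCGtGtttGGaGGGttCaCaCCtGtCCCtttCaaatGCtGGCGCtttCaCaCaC
SNORA22: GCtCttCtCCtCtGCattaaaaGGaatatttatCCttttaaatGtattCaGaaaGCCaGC
RNU12: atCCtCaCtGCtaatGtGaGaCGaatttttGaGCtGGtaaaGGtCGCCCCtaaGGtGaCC
SNORD36B: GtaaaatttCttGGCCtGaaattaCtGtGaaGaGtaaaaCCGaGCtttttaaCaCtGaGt
SNORA58: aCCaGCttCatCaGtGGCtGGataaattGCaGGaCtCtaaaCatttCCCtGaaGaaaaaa
In hg19, the build of the files, they lie at chr20:37078088-37078147 (plus), chr7:65220581-65220640 (plus), chr22:43011300-43011359 (plus), chr9:136216960-136217019 (plus) and chr3:131197927-131197986 (minus). G and C make up 32 of 60 bases in SNORA60, 21 in SNORA22, 29 in RNU12, 21 in SNORD36B and 24 in SNORA58. SNORA60 guides pseudouridylation of ribosomal RNA, as H/ACA RNAs do, and rose by 1.44 ± 0.12, while SNORA22 of the same class rose by 1.30 ± 0.17 with a probe of 35% GC. SNORA60 was at 1.03 and called with the GC and signal trends removed, and at 0.88 and not called with position too. RNU12, the U12 RNA of the minor spliceosome, was at 0.41, 0.86 and 0.20 on the first arrays and between −1.28 and −1.09 later (1.68 ± 0.13). SNORD36B, a box C/D RNA, went the other way with the same GC as SNORA22: −3.29, −3.35 and −3.12 against −1.77 to −1.41, a fall of 1.67 ± 0.11 that was alike in the 3 lines. SNORD60 fell by 1.32 ± 0.11, and SNORD54 was also called lower but was tested through the later arrays alone, being above background on 1 of the 3 first arrays. SNORA71A rose by 1.5 ± 0.16 and SNORA14B by 1.48 ± 0.32. SNORD56B, above background on 1 of the 3 first arrays, fell by 1.37 ± 0.22, but with normexp background correction its difference was 0.06. SNORA58 differed in 1 array: it was at 5.20 on the first K57N array and between −2.03 and −0.88 on the other 8.
Of 18 host genes of small nucleolar RNAs SNHG11, SNHG33 and SNHG7 were higher (1.31, 1.24 and 1.19; 16.7% beside 12.7% of all genes), and SNHG7, with a probe of 30% GC, kept its call. Each was called on 1 of its tested probes. SNHG11 had 7 with differences from 0.31 to 1.31, SNHG33 5 from −0.85 to 1.24, and SNHG7 2, at 0.70 and 1.19.

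Zinc finger genes are the largest family of DNA-binding factors. Of 425 tested 53 were lower (12.5% beside 5.04%) and 17 higher (4.0% beside 12.7%), and 18 and 9 of these were called with the 3 trends removed. Their median difference of −0.32 was then −0.06. ZNF283 was at −1.52, −1.77 and −1.02 on the first arrays and between 0.03 and 0.55 later, a fall of 1.67 ± 0.10. ZNF480 fell by 1.64 ± 0.09 and ZNF146 by 1.62 ± 0.16. ZNF221 was not well above background on any first array and was at least 1.57-fold lower there (limma adjusted p = 0.000422), but it was tested through the later arrays alone and with normexp background correction its difference was 0.40. The rises of ZNF497 (1.68) and ZNF467 (1.38) came with probes of 71.7 and 83.3% GC and were not called without the trends, while ZNF496 (1.56) and ZNF843 (1.55), at 55%, were.

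The agreement of the 3 lines was uneven. Across genes the difference in WT correlated with that in F53S at 0.89, with K57N at 0.71, and F53S with K57N at 0.76, as descriptions that share the slides. More than 2-fold upward were 3012 genes in WT, 4051 in F53S and 1473 in K57N, and downward 1307, 1726 and 567. The smallest interaction p-values belonged to genes with 1 array far from the rest. H2BW2, a histone of the germ line, was at 10.37 on the first WT array and between −0.76 and 0.07 on the others. DOHH, an enzyme of hypusine synthesis, was at 11.38 on the same array, where its spot was saturated, and between 0.60 and 1.53 elsewhere. Their spots are diagonal neighbours, at row 383, column 106 and row 384, column 105 of the array. B4GALNT4, a glycosyltransferase, was at 1.77 on the first K57N array and between −2.03 and −0.97 on the others. STARD9, a kinesin-like protein, was at 1.53 on the first WT array and between −4.14 and −2.61 elsewhere. STARD9 was chosen after its values were seen. So were, among the called genes, PTPRC, APOA1, ACTA1, DDIT4, CEBPB, SLC6A9, PCK2, TRIB3, SESN2, HSP90AA1, HMMR, DLGAP5 and SNORA22, and those described as not called other than SARS1, QARS1, CYTB, ATP6 and MAP2K1.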

How the data were processed

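Total RNA of the 3 lines (miRNeasy) was labelled with Cy3 by a low-input amplification kit and hybridized to Agilent 60-base arrays. The authors deposited, per array, Feature Extraction (10.10.1.1) output, whose processed intensity is background-corrected. Their log2 table is the log2 of that signal less a constant per array, within 0.02 for at least 99.5% of probes on every array. It served as an alternative. All columns of per-sample values were mapped to a sample.

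From the deposited intensity, log2 values less each array's 75th percentile were computed. Control spots and spots with outlier marks were left out, and spots of 1 probe averaged. A probe was tested if well above background on all 3 replicate 1 arrays or on all 6 others, which 25438 probes were. R 4.3.3 and limma 3.58.1 fitted cell line and experiment, with Benjamini-Hochberg adjustment over all tested probes. The interaction fit had 3 residual degrees of freedom. On simulated data with 200 changed probes of 25438, 92% were recovered at a log2 change of 1.5 and 98% at 3. Gene names came from the later annotation, updated by accession to RefSeq. Alternatives were normexp with an offset of 50, quantile, median and spike-in scaling, other filters, removed trends, the mean of probes, the replicate number, the methods' t-test, and left-out arrays. The trend in position and limma's unadjusted p were added after the data were seen.

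Named were the 12 largest rises and falls that passed every criterion given above, up to 4 called members of each list in each direction (else the 2 brightest), the 5 smallest interaction p-values and MAP2K1. The lists, from general knowledge, and these rules were chosen with earlier results of these data known. Same-numbered samples deviated together from their line's mean in every pair of lines (r from 0.38 to 0.89), and one alternative treated them as paired. The later arrays of a line share the opposite of its first array's deviation, so these values cannot show that the later arrays pair by number. Samples of different number were not correlated, and pairing among the later arrays was not tested.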

Additional observations from a re-analysis of the deposited data

Results flagged for a closer look

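In 36 of the 113 genes named by the rules, the difference between the experiments differed between the lines by limma's test of the interaction, at an adjusted p below 0.05. That was so for 16.6% of all genes, and DDIT3, H2BW2, DOHH, B4GALNT4 and SNORA58 had been named for it. The values given here are those adjusted p-values. With normexp background correction 34 of all genes passed, CHAC1, DDIT3, HERPUD1, TP53I3, H2BW2, DOHH, B4GALNT4 and SNORA58 among them. Each test compares single first arrays.

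The smallest values belonged to H2BW2 (0.00014) and DOHH (0.000229), neighbouring spots that were bright on the first WT array, and to B4GALNT4 (0.00538) and SNORA58 (0.00552), which were high on the first K57N array. K57N had the largest difference for DDIT3 at 0.00769, CHAC1 at 0.00863, HERPUD1 at 0.0218, DUSP1 at 0.0314 and SNHG7 at 0.0303. CCN2 at 0.0294 and ANKRD1 at 0.0219 were lower in WT and F53S, with differences of −0.18 and −0.33 in K57N, but the first WT and F53S values of ANKRD1 were not well above background. The p53 targets TP53I3 at 0.0219, CDKN1A at 0.0294 and FDXR at 0.0294 were higher in WT and F53S.

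The difference had the same sign in all lines and was smallest in K57N for HMGCS1, FADS2 and H2BC7 at 0.0294 each, DDX21 at 0.0294, SNORA14B at 0.0294, NDUFS7 at 0.0303, HSPB1 at 0.0304, H3C15 at 0.031, RPS9 at 0.0324, UTP20 at 0.0332, H4C8 at 0.0341, RPL28 at 0.0382, SNORD56B at 0.0387, NDUFS8 at 0.0398, MT2A at 0.0404, CEP290 at 0.0429, ANKRD19P at 0.0431, ZNF221 at 0.0461 and TKT at 0.0492. RNU12 at 0.0454 and SNORA60 at 0.0371 had their largest difference in F53S, and DNAJB4, at 0.0498, its smallest in WT. ZNF221 was well above background on no first array, SNORD56B on 1 and DNAJB4 on 2. These 3 were tested through the later arrays alone, and how they differ between lines rests at least partly on values near background.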

How the results depend on the processing

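The counts of 2433 higher, 967 lower and 3315 in all 3 lines became 2439, 968 and 3317 with the replicate number as a block. That block treats same-numbered samples as paired, and it changed the call of 1 named gene. At a p of 0.05 and 2-fold the methods' t-test, which leaves out the line, gave 2375 higher and 939 lower, and 2329 and 909 after Benjamini-Hochberg adjustment. Quantile normalization gave 1492 higher and 1482 lower, so 50.2% of calls were upward in place of 71.6%. It was 85.6% with normexp correction, where 359 were lower, and 91.2% with no filter, where 10658 were higher and 11188 differed in all 3 lines. With probes above background on all arrays 598 were lower. With no fold limit 8715 were higher, 4932 lower and 12631 shared by the lines, and with a 4-fold limit 118, 26 and 144. With the GC and signal trends removed 561 were lower, and with position 515, when 2170 differed in all lines. The interaction count of 3189 was 34 with normexp, 2 with no filter, 1489 without the GC and signal trends and 1441 without position as well. Leaving out 1 array gave between 1764 (without F53S replicate 1) and 3477 (without K57N replicate 1) higher, 675 to 1447 lower, and 2433 to 4920 in all lines compared.

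List medians less that of all genes moved as follows. Heat shock proteins went from −0.58 to −0.755 (normexp), −0.806 (quantile), −0.817 (signal trend) and −0.502 (GC and signal), and to between −0.726 and −0.499 with 1 array left out. Without K57N replicate 1 the ATF4 targets went from 0.443 to 0.163, and the p53 targets from 0.114 to 0.229, or to 0.03 without WT replicate 1. Without F53S replicate 1 fatty acid synthesis went from 0.296 to 0.162 and small RNAs from 0.251 to 0.137. HIF targets turned from −0.234 to 0.164 (GC and signal) and 0.24 (with position), cholesterol genes from −0.133 to 0.068 (with position), interferon-stimulated genes from −0.353 to 0.209 (normexp) and 0.234 (above background on all arrays), and replication genes from 0.035 to −0.235 (normexp), −0.141 (quantile) and −0.14 (signal). Fatty acid synthesis came to −0.05 (normexp), 0.159 (quantile) and 0.558 (with position), and host genes from 0.023 to −0.249 (normexp). Glycolysis went from 0.278 to 0.033 (normexp), 0.152 (quantile), 0.168 (signal) and 0.141 (GC and signal). Respiratory chain genes, at 0.113, lay between −0.171 and −0.07, and mitochondrially encoded genes, at 0.101, between −0.184 and −0.046, under normexp, quantile and the removed trends. The p53 targets came to −0.152 and lysosome genes to −0.075 with normexp. Metallothioneins came to 0.628 (normexp), 0.392 (GC and signal) and 0.308 (with position), histones to 0.333 and 0.195. Ribosomal proteins came to 0.10 (normexp) and turned to −0.146 (quantile), −0.147 (signal), −0.134 (GC and signal) and −0.104 (with position). With position, small RNAs were at −0.024 and zinc fingers at −0.245. With normexp IFI44L (0.56), SNORD56B (0.058) and ZNF221 (0.40) reversed. The causes were not tested. Of 2486 named-gene values, 2190 kept direction and side of the threshold, 285 lost the call, 8 gained it and 3 reversed, and 37 of 104 called genes kept the call throughout. The number of arrays, 9, limits the precision.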
